A study of Mus musculus with 4 samples.

Results

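The 9 genes described here are transcripts known for their place in the secretion of rodent prostate lobes or found highly transcribed there: Pbsn, Msmb, Tgm4, Azgp1, Pnliprp1, Apof, 9530053A07Rik, Crym and Glb1l2. They were taken by gene symbol from a deposited expression table of 23242 rows, and all 9 symbols matched exactly 1 row. RNA was sequenced from prostate lobes that the labels describe as ventral and dorsal, in 4 FVB mice. Mice 26 and 29 were homozygous for a TMPRSS2:ERG transgene and labelled ERG positive, and mice 27 and 28 were wild type and labelled ERG negative. The transgene was a bacterial artificial chromosome carrying the TMPRSS2 locus, into which exons of human ERG had been inserted behind a GFP cassette flanked by loxP sites. A line with high GFP then received Cre protein by injection into pronuclei, and the homozygotes were bred from 1 sub-line, so an effect of the genotype and of that insertion or sub-line cannot be told apart. The sources used here give no age for the mice. All 4 libraries carried transcripts of the prostate epithelial factor Hoxb13 (288 and 250 scaled FPKM in homozygotes, 238 and 237 in wild types).

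Luminal cells of the prostate release proteins into the lumen of each lobe, and these proteins become part of the seminal fluid. Transcription of many of them depends on androgens, and the lobes differ in which proteins they make. In the rat, probasin (Pbsn) and the Msmb protein are products of the lateral and dorsolateral prostate, the Tgm4 enzyme comes from the coagulating gland and dorsal prostate, and in the mouse the spermine-binding protein Sbp belongs to the ventral lobe. ERG is an ETS-family transcription factor that the TMPRSS2 fusion places under control of an androgen-regulated locus.

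The promoters of 3 of the genes are shown because they bear on this androgen setting: Pbsn, whose androgen-dependent promoter drives many prostate transgenes, Azgp1, the 1 of the 9 that passed the test between genotypes, and 9530053A07Rik, which in every library holds a code in place of a value. The sequences are from RefSeq (build GRCm38.p6), each of 300 bases on the gene's own strand, from 250 bases before the annotated start to 50 after it. Capitals mark AGAACA or its reverse complement TGTTCT, a hexamer of androgen response elements, AGGAAG or its reverse complement CTTCCT, an ETS core, and TATAAA on the gene's strand, a TATA box.
Pbsn, chrX:77853451-77853750, minus strand: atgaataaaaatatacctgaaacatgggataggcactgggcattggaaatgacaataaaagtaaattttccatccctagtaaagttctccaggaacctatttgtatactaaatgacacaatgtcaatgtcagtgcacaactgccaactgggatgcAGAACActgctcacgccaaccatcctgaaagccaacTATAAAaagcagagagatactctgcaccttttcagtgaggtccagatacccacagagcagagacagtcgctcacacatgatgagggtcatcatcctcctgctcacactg
Azgp1, chr5:137981271-137981570, plus strand: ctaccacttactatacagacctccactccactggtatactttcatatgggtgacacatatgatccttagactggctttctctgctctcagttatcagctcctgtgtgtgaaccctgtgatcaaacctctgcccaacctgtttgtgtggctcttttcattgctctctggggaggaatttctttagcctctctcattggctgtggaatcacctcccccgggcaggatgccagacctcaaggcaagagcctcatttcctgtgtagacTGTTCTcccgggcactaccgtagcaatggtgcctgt
9530053A07Rik, chr7:28129216-28129515, plus strand: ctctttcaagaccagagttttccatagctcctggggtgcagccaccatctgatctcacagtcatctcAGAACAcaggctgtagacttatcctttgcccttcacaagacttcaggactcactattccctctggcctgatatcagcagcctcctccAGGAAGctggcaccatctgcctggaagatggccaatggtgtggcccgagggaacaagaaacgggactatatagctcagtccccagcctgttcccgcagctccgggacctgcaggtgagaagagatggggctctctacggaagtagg

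Promoter windows were matched for 5 of the 9 genes, these 3 with Tgm4 and Pnliprp1. The hexamer AGAACA, on either strand, lay in 3 of the 5 windows and in 19% of the 32851 RefSeq windows of the same length. Its position was -95 in Pbsn, -183 in 9530053A07Rik and +15 in Azgp1, counted from the annotated start. The match thus lies before the start in Pbsn and 9530053A07Rik and just after it in Azgp1. The inverted repeat of that hexamer with NNN between its arms was in none of the 5 and in 3 of the 32851. The ETS core AGGAAG lay in 2 of the 5, at -96 in 9530053A07Rik and at -175 in Tgm4, against 35.4% of all windows. Azgp1, Pbsn and Pnliprp1 have no match to that core in their windows. The longer ETS core CCGGAAGT, also on either strand, was in none of the 5 and in 3.89% of all windows. TATAAA, a search added after the sequences had been seen, lay in 2 of the 5, at -59 in Pbsn and -30 in Tgm4, against 8.32% of all windows. These matches describe letters in a window and were not tied to binding of any factor.

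The 9 genes are spread over 7 chromosomes. Their positions below are those of the deposited table, on build mm10, with starts raised by 1 base, and GENCODE M21 annotates all 9 as protein coding. Values are FPKM, which count fragments relative to transcript length and to the fragments sequenced, divided by a scaling factor per library and called scaled FPKM. For 2 of the genes some libraries hold a run of nines in place of a value, which was read as a code, perhaps for an upper limit, and left out. The coded genes are 9530053A07Rik, coded in all 4 libraries, and Tgm4, coded in homozygote mouse 29. The other 7 genes had a value in each library and a mean above 1 scaled FPKM, and were tested. Between genotypes 1 of the 7 fell in homozygotes, Azgp1, and none rose by limma at an adjusted p of 0.05. In whole tissue, fewer cells of a type and less RNA per cell cannot be told apart. How much of each lobe a library holds was not measured, and its part in these differences was not tested. At an unadjusted p under 0.05 there were 3, of which Msmb and Crym were the 2 higher in homozygotes. By the q-value of the authors' deposited table none of the 7 was higher, though how the entry for Msmb was made is not stated. Many of all tested genes were under that unadjusted p. By the size of the moderated limma statistic Crym (unadjusted p = 0.0300) ranked 2009 of 11762 and Pnliprp1 (unadjusted p = 0.0670) ranked 2825. The number of tested genes under 0.05 thus lies between these ranks, and unadjusted counts here and in the lists below stand against it. The same fit called 7.65% of 11762 genes, 4.65% higher and 3.00% lower. Of its 900 calls 60.8% were higher in homozygotes, against 73.0% without scaling and 49.1% without wild-type mouse 27, and the number was 355 without homozygote mouse 26, 394 without homozygote mouse 29, 2028 without mouse 27 and 1630 without wild-type mouse 28. The mice are separate animals per the labels, with 2 per genotype.

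**Figure D1:**
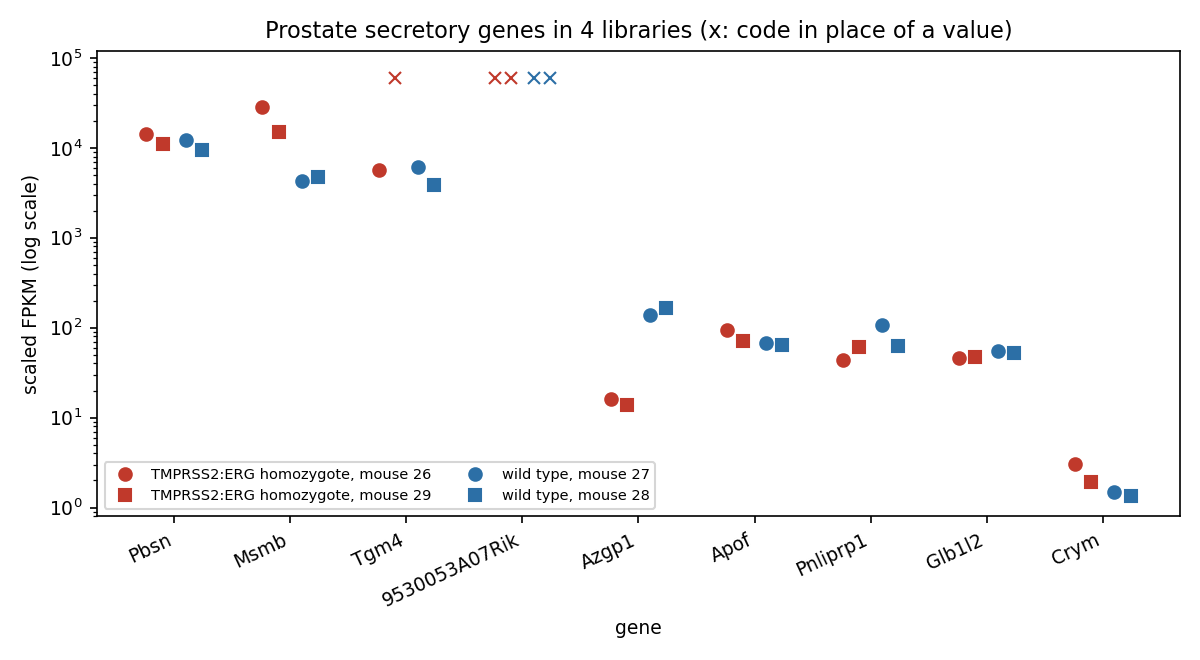
Scaled FPKM (vertical log axis) of each gene in the 4 libraries, with homozygotes in red and left, wild types in blue and right, and a cross where the table holds the code. Both homozygotes lie above both wild types for Msmb and below them for Azgp1, and Pbsn, Glb1l2 and Apof lie close together.

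Of the 7 genes with a value in each library, the most abundant were Pbsn and Msmb, which encode seminal plasma proteins. Pbsn (Entrez 54192, chromosome X, 77837898 to 77853500) encodes probasin, a secreted lipocalin, the family of small barrel-shaped carriers of hydrophobic ligands. Pbsn was at 14385 and 11155 scaled FPKM in homozygote mice 26 and 29, and at 12135 and 9477 in wild-type mice 27 and 28. The groups overlapped, since mouse 27 lay above mouse 29. The log2 difference of Pbsn, homozygote minus wild type, was 0.24 (SE 0.475, 95% interval -0.94 to 1.42, limma adjusted p = 0.846), and the exact permutation p was 0.667. The difference lay between 0.06 without mouse 26 and 0.43 without mouse 29. Pbsn made up 2.82% and 2.46% of the FPKM total in homozygotes, and 2.37% and 2.07% in wild types. These are shares of the summed FPKM without the code, so they weigh transcripts per length.

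Msmb (Entrez 17695, chromosome 14, 32142023 to 32158326) encodes beta-microseminoprotein, also called PSP94, a small protein that is abundant in human seminal plasma. Msmb was at 28100 and 14924 scaled FPKM in homozygote mice 26 and 29, and at 4240 and 4729 in wild-type mice 27 and 28. Both homozygotes lay above both wild types, and the homozygotes differed from each other far more than the wild types did. The absolute log2 difference of Msmb was 0.91 within homozygotes and 0.16 within wild types, while the medians over all tested genes were 0.11 and 0.18. Msmb averaged 21512 ± 9317 scaled FPKM in homozygotes and 4485 ± 346 in wild types (SD, n = 2 each), a ratio of 4.80. In these mice both the level and the spread were thus higher in homozygotes, and the spread, from 2 mice per genotype, was not tested. The log2 difference was 2.19 (SE 0.501, 95% interval 0.95 to 3.44), and it did not pass limma (adjusted p = 0.0626). It did pass under 6 of 14 other settings, with the adjusted p between 0.00656 and 0.460 over the 14, and its value lay between 1.74 without mouse 26 and 2.65 without mouse 29. The exact permutation p was 0.3333, the smallest that 6 arrangements allow. The order of the most abundant rows also differed. Msmb ranked 4 and 5 among all rows in homozygotes and 16 and 12 in wild types, with coded rows counted as higher. Its share of the FPKM total was 5.50% and 3.29% in homozygotes, and 0.828% and 1.03% in wild types.

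A ratio within a library does not depend on scaling. Msmb over Pbsn was 1.95 and 1.34 in homozygotes, and 0.349 and 0.499 in wild types, so Msmb was the higher of the pair in both homozygotes and the lower in both wild types. Defb50, a beta-defensin gene, had the highest mean of any row without the code. It was at 29183 and 17977 scaled FPKM in homozygotes and at 16715 and 20006 in wild types, and these overlap. Defb50 was not called (limma adjusted p = 0.833), except with quantile normalization, where it was higher in homozygotes by 0.54 (limma adjusted p = 0.0295). Msmb over Defb50 was 0.963 and 0.830 in homozygotes, and 0.254 and 0.236 in wild types (exact permutation p = 0.3333 for this ratio and for that to Pbsn). Pbsn over Defb50 overlapped between genotypes, at 0.493 and 0.621 in homozygotes and 0.726 and 0.474 in wild types. The neighbour of Msmb on the chromosome, Ncoa4, lies 1.56 kb away and averaged 58.2 scaled FPKM in homozygotes and 58.2 in wild types.

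Tgm4 (Entrez 331046, chromosome 9, 123034741 to 123067558) encodes the prostate transglutaminase, which in rodents cross-links seminal vesicle proteins into the copulatory plug. Tgm4 was at 5695 scaled FPKM in homozygote mouse 26, holds the code in homozygote mouse 29, and was at 6099 and 3900 in wild-type mice 27 and 28. The 3 numeric values overlap between genotypes, and no test was made. The authors' deposited table gives Tgm4 a log2 fold of 3.46 with a p-value of 0.79 and a q-value of 1, which takes the code as a value. Of the 50-base stretches in its coding transcripts, 37.4% also occur, on either strand, in GENCODE transcripts of Zdhhc3 or Gm49323. The sources used here do not say whether counting used strand, so its reads and those of these genes cannot be told apart over that length. In the deposited table no row overlaps that of Tgm4. Zdhhc3, 4.75 kb away, averaged 8.37 scaled FPKM in homozygotes and 10.5 in wild types, far below the numeric values of Tgm4.

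9530053A07Rik (Entrez 319482, chromosome 7, 28129466 to 28164811) is listed in RefSeq with the synonym FCGBP, the name of a large mucin-like secreted protein. It holds the code in both homozygotes and in both wild types, which it shares with the seminal vesicle gene Svs2 among the 7 rows with any code. A difference between genotypes could therefore not be measured. The authors' deposited table gives it 0 for the log2 fold, the p-value and the q-value. Its longest coding transcript, of 7922 bases in 20 exons, is the longest of the 9, and 8.56% of its 50-base stretches also occur in Fcgbp, which lies 8.6 kb away. Fcgbp itself was at 12.9 and 12.5 scaled FPKM in homozygotes and 11.9 and 10.6 in wild types, so the adjacent relative was not at the top of the scale.

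Azgp1 (Entrez 12007, chromosome 5, 137981521 to 137990232) encodes zinc-alpha-2-glycoprotein, a secreted protein with an MHC class I-like fold that is present in human seminal plasma and promotes lipid breakdown in fat cells. Azgp1 was at 16.2 and 13.9 scaled FPKM in homozygote mice 26 and 29, and at 140 and 165 in wild-type mice 27 and 28. Every homozygote lay far below every wild type, and replicates were close together. It averaged 15.03 ± 1.64 scaled FPKM in homozygotes and 153 ± 17.8 in wild types (SD, n = 2 each), which is 10.2-fold lower. The difference between genotypes was thus much larger than that between mice of a genotype. Azgp1 fell by 3.26 on the log2 scale (SE 0.138, 95% interval -3.60 to -2.92, limma adjusted p = 0.000315), with rank 28 of 11762 by the size of the moderated statistic. It passed under all 14 other settings of the fit, with the adjusted p between 2.39e-06 and 0.00432. The exact permutation p was 0.3333, the smallest possible. The authors' deposited table gives Azgp1 a log2 fold of -3.39 and a q-value of 0.

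Set against other genes of the 9, Azgp1 over Glb1l2 was 0.348 and 0.292 in homozygotes and 2.53 and 3.18 in wild types. Azgp1 over Apof was 0.173 and 0.195 in homozygotes and 2.06 and 2.59 in wild types. The nearest tested genes on either side, Mepce at 195 kb and Zkscan1 at 94.9 kb, had log2 differences of -0.02 (limma adjusted p = 0.957) and -0.21 (limma adjusted p = 0.467). Among 5447 genes averaging 10 scaled FPKM or more, the profile over the 4 libraries nearest to that of Azgp1 was that of Pdzk1, a scaffold protein gene, with a root mean square difference of 0.0708 on the centred log2 scale. Pdzk1 was at 5.35 and 4.90 scaled FPKM in homozygotes and 52.9 and 69.2 in wild types. Rnf186 (0.294) and Caln1 (0.336) came next by the same measure. All 3 are lower in both homozygotes than in either wild type, and with 4 libraries such a likeness is a description.

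Pnliprp1, Apof and Glb1l2 were at lower levels, and none of these 3 passed by limma, at an unadjusted p under 0.05 or by the q-value of the authors' deposited table. Pnliprp1 (Entrez 18946, chromosome 19, 58728887 to 58744169) encodes a relative of pancreatic lipase with little lipase activity of its own. Pnliprp1 was at 44.2 and 61.8 scaled FPKM in homozygote mice 26 and 29, and at 107 and 63.2 in wild-type mice 27 and 28. The groups do not overlap, but mouse 29 and mouse 28 lie next to each other and mouse 27 stands apart from the rest. The log2 difference was -0.64 (SE 0.283, 95% interval -1.35 to 0.06, limma adjusted p = 0.279). It depended on the wild types: it was -1.01 without mouse 28 (limma adjusted p = 0.0182) and -0.27 without mouse 27, where it did not pass. Pancreatic lipase itself, Pnlip, is listed at 0 in both homozygotes and in mouse 27 and at 0.0131 FPKM in mouse 28. Of 14 exocrine pancreas genes 10 were under 0.1 scaled FPKM in every library, and the 14 summed to 2.59 and 2.60 in homozygotes and 13.5 and 14.2 in wild types, of which Cela1 made up 1.90 and 2.07 in homozygotes and 11.1 and 12.6 in wild types. Cela1, an elastase gene, was the only pancreas gene tested and fell (log2 difference -2.11, SE 0.117, limma adjusted p = 0.000723). Its part in the values of Pnliprp1 was not tested.

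Apof (Entrez 103161, chromosome 10, 128267997 to 128270151) encodes apolipoprotein F, which inhibits lipid transfer between lipoproteins in human plasma. Apof was at 93.7 and 71.2 scaled FPKM in homozygotes, and at 68.1 and 63.9 in wild types. Both homozygotes lay above both wild types, by little in the case of mouse 29. The log2 difference was 0.30 (SE 0.160, 95% interval -0.09 to 0.70, limma adjusted p = 0.365), and it was 0.11 without mouse 26 and 0.50 without mouse 29. Glb1l2 (Entrez 244757, chromosome 9, 26763044 to 26806417) encodes a protein related to beta-galactosidase. Glb1l2 was at 46.5 and 47.4 scaled FPKM in homozygotes, and at 55.4 and 52.0 in wild types. Both homozygotes were slightly lower, with a log2 difference of -0.19 (SE 0.105, 95% interval -0.45 to 0.07, limma adjusted p = 0.395).

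Crym (Entrez 12971, chromosome 7, 120186384 to 120201988) encodes mu-crystallin, a cytosolic enzyme that binds thyroid hormone, so it is no secreted protein. Crym was at 3.04 and 1.94 scaled FPKM in homozygotes, and at 1.48 and 1.34 in wild types. Both homozygotes were higher, with a log2 difference of 0.52 (SE 0.179, 95% interval 0.07 to 0.96, limma adjusted p = 0.176). It was 0.29 without mouse 26 and 0.74 without mouse 29. The pseudocount of 1 shrinks the difference of so low a gene, which was 0.75 with a pseudocount of 0.1 and did not pass there. Crym ranked 9221 and 10432 among all rows in homozygotes and 10979 and 11315 in wild types, so these libraries do not show it as abundant. Azgp1 was also far down this order in homozygotes, with ranks 3845 and 4335, against 437 and 318 in wild types.

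**Figure D2:**
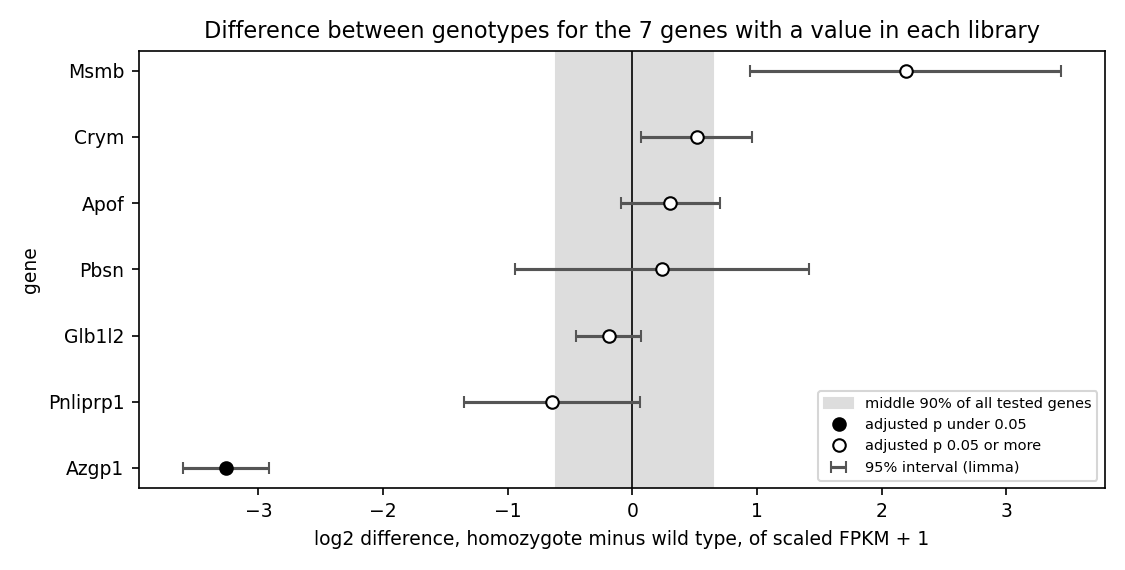
Log2 difference, homozygote minus wild type (horizontal axis), for the 7 tested genes with its 95% interval, over a grey band that holds the middle 90% of all tested genes (-0.61 to 0.65). Azgp1 alone passes the threshold, and Msmb lies outside the band with a wide interval.

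Groups did not overlap in 6 of the 7 tested genes, 3 higher and 3 lower in homozygotes, where 51.1% of all tested genes did not overlap. The median log2 difference of the 7 was 0.24 and the median of its absolute size 0.52, against -0.00327 and 0.15 over all tested genes. Of 14374 genes with a q-value in the authors' deposited table, 14.2% have one under 0.05, and among the 9 genes these are Azgp1 and 9530053A07Rik, of which the second rests on the code. The authors' deposited table gives Msmb a log2 fold of 2.33 with a p-value of 0.94 and a q-value of 1. These entries and those of Tgm4 have fewer decimals than most entries of the authors' deposited table. The sources used here do not say how they were made. The p-values and q-values of Msmb and Tgm4 were therefore not read as showing a lack of difference. It also holds 2 genes with a p-value under 0.05 whose q-values are not: in the authors' deposited table Crym has a log2 fold of 0.83 (p-value 0.0306, q-value 0.209) and Pnliprp1 one of -0.47 (p-value 0.0131, q-value 0.114).

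**Figure D3:**
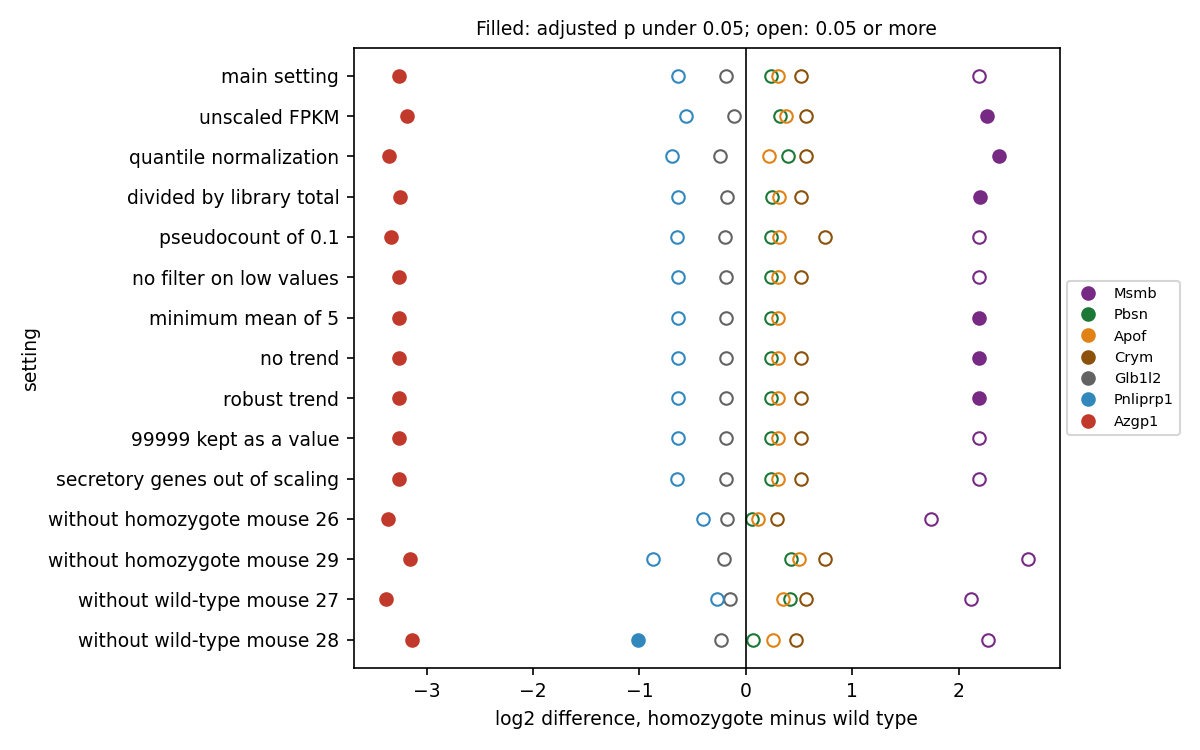
Log2 difference, homozygote minus wild type (horizontal axis), of the 7 tested genes under the main setting and 14 others (rows), filled where the adjusted p is under 0.05. Azgp1 is filled in every row, Msmb in 6 of the other settings, and Pnliprp1 without wild-type mouse 28.

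By level in wild types, Pbsn stood first, then Msmb and Tgm4, whose ranges overlap, then Azgp1, then Pnliprp1 and Apof, whose ranges overlap, then Glb1l2 and last Crym. In homozygotes Msmb stood above Pbsn without overlap, followed by Tgm4 in mouse 26, Apof, then Pnliprp1 and Glb1l2, whose ranges overlap, then Azgp1 and Crym. The order of FPKM compares levels per length, and 9530053A07Rik has no place in it. The 7 genes with a value in each library made up 8.35% and 5.79% of the FPKM total in homozygotes, and 3.27% and 3.18% in wild types. Nearly all of this was Msmb and Pbsn, and the other 5 summed to 0.0398% and 0.0432% in homozygotes and 0.0726% and 0.0754% in wild types. The mean summed share was 7.07% ± 1.81 in homozygotes and 3.22% ± 0.0667 in wild types (SD, n = 2 each). The totals leave out unequal numbers of coded cells, 2 and 3 in homozygote mice 26 and 29, and 6 and 4 in wild-type mice 27 and 28. These shares are therefore of totals that do not hold the same rows, and they leave out Tgm4 and 9530053A07Rik.

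**Figure D4:**
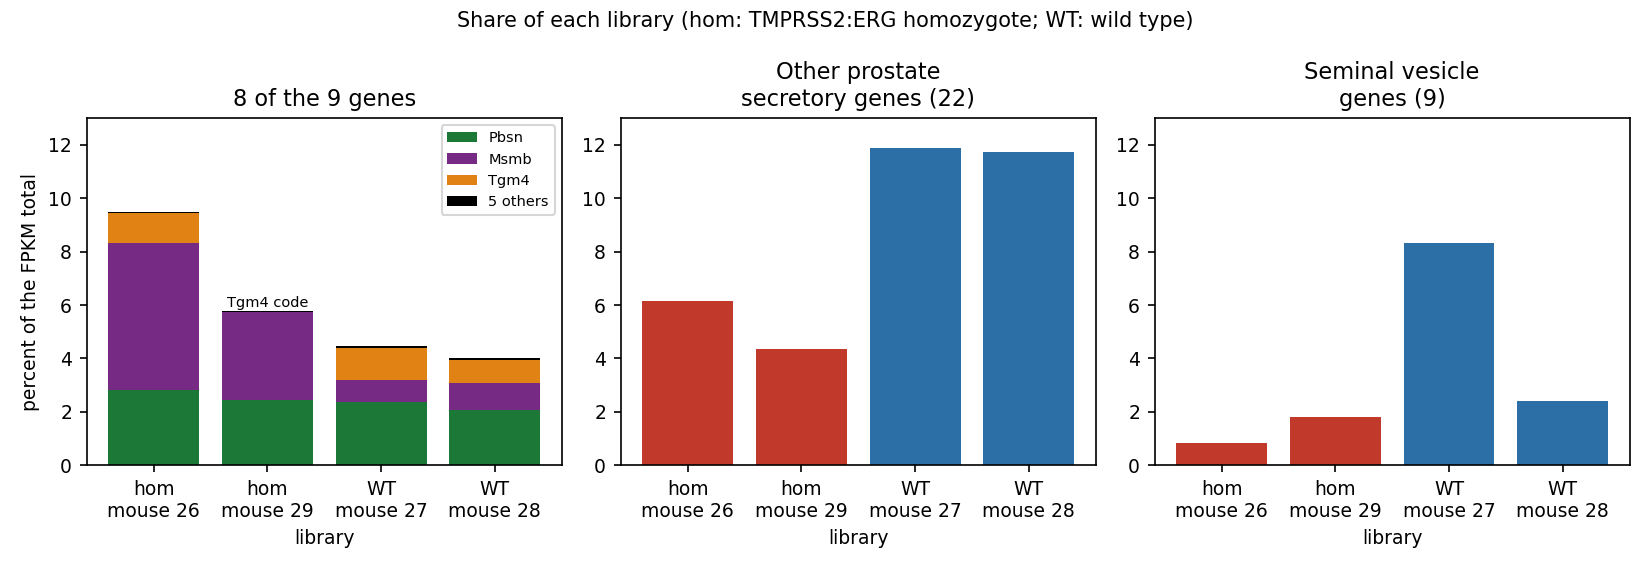
Percent of each library's FPKM total (vertical axis) taken by 8 of the 9 genes, by 22 other prostate secretory genes and by 9 seminal vesicle genes, with homozygotes left and wild types right, and coded values left out. Msmb widens in both homozygotes, while the shares of the 22 and of the 9 are lower there. Spink3 makes up most of the share of the 22 in wild types. Pate4 makes up most of the share of the 9 in homozygotes and in wild-type mouse 28.

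A wider list of prostate secretory genes held changes in both directions. Of 24 listed genes 17 were tested, 3 rose and 9 fell, with a median log2 difference of -0.88. The list was drawn up with earlier results of these libraries known. Dcpp1 rose (37.0 and 30.5 scaled FPKM in homozygotes, 0.127 and 0.105 in wild types, log2 difference 4.96, SE 0.132, limma adjusted p = 8.26e-05). Dcpp1 encodes a secreted protein named from salivary glands. Wfdc3, of a family of protease inhibitors, fell (0.420 and 0.355 in homozygotes, 41.2 and 30.6 in wild types), as did the lectin gene Itln1 (1.71 and 0.655 in homozygotes, 53.5 and 66.0 in wild types) and the kallikrein gene Klk1b24 (0.232 and 0.127 in homozygotes, 3.54 and 4.57 in wild types). Dcpp1, Wfdc3 and Klk1b24, and also Dcpp2 of the same list, averaged under 1 scaled FPKM in 1 genotype and so entered the test through the other, where they had to differ. The trypsin inhibitor gene Spink3 was at 97.05 and 8.70 scaled FPKM in homozygotes and 38646 and 30638 in wild types, a fall whose call was lost with a robust trend. The ventral lobe gene Sbp and the gene named for its likeness to it, Sbpl, hold the code in both wild types and were at 152 and 5.13 unscaled FPKM (Sbp) and 70.9 and 2.42 unscaled FPKM (Sbpl) in homozygotes. The 22 genes of the list without a code took 6.16% and 4.36% of the FPKM total in homozygotes, and 11.9% and 11.7% in wild types. Summed scaled FPKM of the 22 was 31483 and 19793 in homozygotes and 60781 and 53730 in wild types. Spink3 made up most of the wild-type sums, and the sums of the rest overlapped between genotypes.

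**Figure D5:**
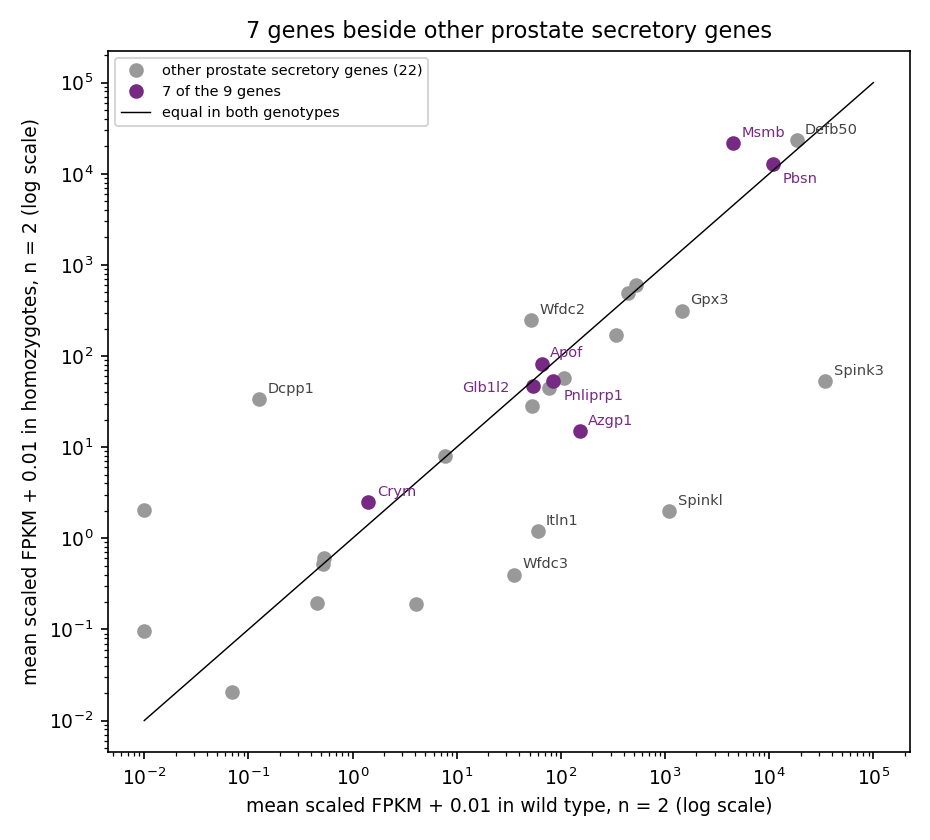
Mean scaled FPKM + 0.01 in homozygotes (vertical log axis) against that in wild types (horizontal log axis), n = 2 each, for 7 of the 9 genes (purple) and 22 other prostate secretory genes (grey), with a line of equality. Msmb lies above the line and Azgp1 below it, and several grey genes lie farther from it, among them Spink3, Wfdc3, Itln1 and Dcpp1.

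Genes of the same protein families gave 2 calls. Of 20 listed, 11 were tested, 2 rose and none fell by limma, where 3 were higher and 2 lower at an unadjusted p under 0.05 and 1 was lower by the q-value of the authors' deposited table. The lipocalin gene Lcn2, of the same family as Pbsn, rose (290 and 261 scaled FPKM in homozygotes, 47.0 and 49.1 in wild types, log2 difference 2.49, SE 0.123, limma adjusted p = 0.000516). The lysosomal beta-galactosidase gene Glb1 rose by 0.58 (SE 0.114, limma adjusted p = 0.0410), a call lost in 6 of 14 other settings, leaving out mouse 26 and leaving out mouse 29 among them. Glb1l3 lies 11.5 kb from Glb1l2 and was at 237 and 417 scaled FPKM in homozygotes and 314 and 107 in wild types, which overlap. Of the 18 nearest tested genes on either side of the 9, 1 was called, Eepd1, which lies 1160 kb from Glb1l2 and fell by 0.88 (SE 0.109, limma adjusted p = 0.00982), a call lost without mouse 26 and without mouse 29.

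Of 10 luminal regulator genes 1 rose, the epithelial ETS factor Spdef (40.7 and 37.0 scaled FPKM in homozygotes, 20.1 and 20.7 in wild types, log2 difference 0.90, SE 0.106, limma adjusted p = 0.00848), a call lost without mouse 26. Of the 10, 8 lay above 0 and 2 below it, and 3 were higher at an unadjusted p under 0.05. None fell by limma, at an unadjusted p under 0.05 or by the q-value of the authors' deposited table, and their median log2 difference was 0.22. Of 19 tested androgen response genes 1 rose, the metalloreductase gene Steap4 (log2 difference 2.34), and 3 fell, Tmprss2 (-0.75), Slc45a3 (-0.88) and Tsc22d3 (-0.96), with a list median of 0.05. These 3 falls were lost in 2 to 4 of the 14 other settings each, among them leaving out mouse 29. Of 31 genes for the translocation, folding and export of secreted proteins 1 rose, the transcription factor gene Creb3l1 (103 and 106 scaled FPKM in homozygotes, 19.1 and 31.7 in wild types, log2 difference 2.04, SE 0.232, limma adjusted p = 0.00740). None of the 31 fell by limma or at an unadjusted p under 0.05, where 5 were higher, and none fell by the q-value of the authors' deposited table. Of the 31, 29 lay above 0 and 2 below it, with a median of 0.21.

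Genes that mark cell types were summed per library. Summed scaled FPKM of 12 luminal epithelium genes was 2412 and 2576 in homozygotes and 2288 and 2286 in wild types, and 1 of the 12, Epcam, rose (log2 difference 0.79, limma adjusted p = 0.0328, a call lost in 4 of 14 other settings). The luminal sums were thus close in all 4 libraries. Of 10 basal genes 1 rose, Itga6 (0.70, limma adjusted p = 0.0456, lost in 7 of 14), with sums of 259 and 224 in homozygotes and 132 and 267 in wild types. Of 9 proximal luminal genes 2 rose, Ly6a (2.80) and Wfdc2 (2.31), and 2 fell, Psca (-2.37) and Krt4 (-1.40, a call lost in 6 of 14), with sums of 2166 and 2047 in homozygotes and 1359 and 2149 in wild types. The calls of Epcam, Itga6 and Krt4 were each lost without mouse 26 and without mouse 29. The proximal sum adds genes that rose to genes that fell. The part of these epithelial cell types in the values of the 9 genes was not tested. Of 9 tested seminal vesicle genes 6 fell and all 9 lay below 0, with sums of 4352.5 and 8185 in homozygotes and 42713 and 11082 in wild types, and none of the 9 was under 0.1 in every library. Pate4, not called (limma adjusted p = 0.325), made up 4318 and 8148 of these sums in homozygotes and 15870 and 9904 in wild types. Svs1, for example, was at 3.83 and 1.05 scaled FPKM in homozygotes and 3421 and 236 in wild types, a call lost with no filter and with a robust trend. The 3 other genes of this list, Svs2, Svs4 and Svs5, hold the code in 1 or more libraries. Svs2 holds it in all 4 libraries. Svs5 was at 6387 and 12211 unscaled FPKM in homozygotes and 20914 in wild-type mouse 28, with the code in mouse 27. Both Svs1 and the sum of the 9 were far higher in wild-type mouse 27 than in wild-type mouse 28. The part of seminal vesicle tissue in the values of Azgp1 and Msmb was not tested.

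Among other cell types, 5 of 6 tested mast cell genes rose, such as the tryptase gene Tpsab1 (log2 difference 5.81), which averaged under 1 scaled FPKM in wild types and entered the test through homozygotes, where it had to be higher, and the 8 listed summed to 298 and 233 scaled FPKM in homozygotes and 13.4 and 15.1 in wild types. Mast cell transcripts were therefore low in both wild types and abundant in both homozygotes. Of 12 macrophage genes 3 rose (Cd14, Fcgr3 and Laptm5, the last a call lost without mouse 26 and without mouse 29), with sums of 131 and 114 in homozygotes and 96.2 and 70.6 in wild types. None of 10 smooth muscle genes passed by limma, where 7 were lower at an unadjusted p under 0.05 and 1 by the q-value of the authors' deposited table. All 10 lay below 0, with sums of 1419 and 1664 in homozygotes and 2851 and 1963 in wild types. Of 10 fibroblast genes 1 fell (Postn, a call lost without mouse 26 and without mouse 29), with sums of 348 and 289 in homozygotes and 292 and 326 in wild types. None of 10 endothelial genes passed by limma, where 1 was higher and 2 lower at an unadjusted p under 0.05 and 1 was higher by the q-value of the authors' deposited table, with sums of 43.0 and 45.7 in homozygotes and 49.4 and 50.9 in wild types. The 1 tested lymphocyte gene of 9 in the table, Ptprc, averaged under 1 scaled FPKM in wild types, entered the test through homozygotes and did not pass (log2 difference 0.38, limma adjusted p = 0.178, unadjusted p = 0.0305), and of 4 tested red blood cell genes 1 fell (Alas2, a call lost in 7 of 14 other settings). Their part in the values of the 9 genes was not tested.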

How the data were processed

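RNA of prostate lobes from 4 mice was sequenced, with 1 library per mouse. The deposited table gives FPKM per gene and library, made by the authors, and its columns were matched to mice by genotype and mouse number. TopHat 1.3, Cufflinks 1.3 and build mm10 are named, per the submitters' processing notes, without their roles. The authors' deposited columns also hold a log2 fold of homozygote over wild type, a p-value and a q-value, made by a test that the sources used here do not name. FPKM hold no counts, so the depth of the libraries is unknown and no counting error can be given. From 7 to 12 cells per library were blank, and 2 to 6 held a run of nines, a code that was treated as missing.

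FPKM were divided by median-of-ratios factors taken over genes at 1 FPKM or above throughout (1.01 and 1.04 for mice 26 and 29, 0.921 and 1.03 for mice 27 and 28). A gene entered the test if it averaged 1 scaled FPKM or more and had a value everywhere. The test was limma 3.58.1 in R 4.3.3 on log2(scaled FPKM + 1), with a trend in the variance, genotype as the only term, Benjamini-Hochberg adjustment over 11762 genes and a threshold of 0.05. The pseudocount of 1 understates the change of low genes. Single ratios and levels were also compared with an exact two-sided permutation test over 6 arrangements. The procedure was also run on simulated data drawn from the variance model of the fit itself. Such a run cannot show how well that model holds for these libraries.

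Other settings were scaling, pseudocount, filter, variance model, the code kept as a value, secretory genes left out of the scaling, each mouse left out, and the authors' q-values. The 9 genes and all lists were chosen with earlier results of these data known. Beyond the 9, the text names of each list up to 4 called genes with the largest moderated statistic (the 2 largest where none was called), highly expressed genes and profiles nearest to Azgp1. Hoxb13, Pnlip, Glb1l3, Fcgbp, Sbp, Sbpl, Dcpp2 and the genomic neighbours were added after their values were seen. Results for some genes of the lists are not reported here.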

Additional observations from a re-analysis of the deposited data

How the results depend on the processing

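Azgp1 fell under all 14 other settings of the fit, between -3.38 and -3.14 on the log2 scale. Msmb passed with unscaled FPKM (2.27, adjusted p = 0.0346), quantile normalization (2.38), division by the library total (2.20), a minimum mean of 5 (2.19), no trend (2.19) and a robust trend (2.19). The number of the 9 genes called was then 2, against 1, and between 1 and 2 with 1 mouse left out. With 1 mouse left out, Msmb lay between 1.74 and 2.65 and passed in none of the 4 fits, and Pnliprp1 lay between -1.01 and -0.27 and passed without mouse 28. The number of genes called lay between 355 and 2028 with 1 mouse left out and was 1607 by the authors' q-value over the genes tested here. The cause of these changes was not tested. The summed share of the 7 genes was 3.85 percentage points higher in homozygotes, between 2.57 and 5.13 over the settings. The difference in share, homozygote minus wild type, changed where the code was kept as a value in the total, to 0.687 points for Pbsn, -0.0137 for Azgp1, -0.00103 for Pnliprp1 and, reversed, 0.00103 for Glb1l2. With secretory genes out of the total it was 0.129 for Pbsn, -0.0359 for Azgp1 and -0.00305 for Glb1l2. Uncalled values whose sign turned were Mepce at 0.0505 unscaled and Ncoa4 at -0.056 with quantile normalization. With 1 mouse left out, Mepce lay between -0.158 and 0.117, Ncoa4 between -0.122 and 0.127 and Defb50 between -0.0223 and 0.676. No paired analysis was possible because the mouse numbers are not shared between genotypes. With 2 mice per genotype the exact permutation test cannot go below 0.3333, and a fit without 1 mouse assumes that the lone mouse varies like the others.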
